A study of Mus musculus with 10 samples.

Results

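The genes described here are Icam1, Cxcl1, Il12b, Ifit1 and Ifi44l, 5 of the 21883 mouse protein-coding genes with a position in the RefSeq table of GRCm38.p6. They were chosen by gains and losses of peaks of active histone marks near their ends after crotonate, so those gains and losses describe the choice and are no evidence for it. The peaks within each gene body and 5 kb either side were read from 8 peak lists. The cells were embryonic neural stem and progenitor cells from E13.5 mouse forebrain, at passage 2 to 3, in medium with epidermal and fibroblast growth factor at 20 ng/ml each. One culture condition received water (control) and the other crotonate at 10 mM, the salt of a short-chain acid from which crotonyl-CoA is made, both for 24 h. No genotype or strain is given in the labels. Native chromatin immunoprecipitation, in which chromatin is not crosslinked, gave 1 library per treatment for H3K4me3, H3K9cr (crotonylated lysine), H3K27ac and H3K27me3. Without a second library of any mark in a treatment, no spread between cultures, test or p-value could be had. Each mark had an antibody of a single catalogue number, while the vendors named in the labels differed for H3K4me3 and H3K27me3 and were missing after crotonate for H3K9cr and H3K27ac.

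Icam1 encodes an adhesion molecule that leukocyte integrins bind. Cxcl1 encodes a chemokine that draws neutrophils through the receptor Cxcr2, and Il12b a subunit shared by the cytokines interleukin 12 and interleukin 23. These genes are classic targets of NF-kB, a transcription factor set free by inflammatory signals. Ifit1, whose protein binds viral RNA that lacks the host cap methylation, and Ifi44l are interferon-stimulated genes, which the factor ISGF3 switches on through the interferon-stimulated response element. In resting cells such genes often have low transcription. H3K4me3 marks promoters, H3K27ac and H3K9cr lie at active promoters and enhancers, and H3K27me3 is laid down by the Polycomb complex PRC2 at repressed genes.

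The promoters are shown because most of the changed peaks lay on or beside them. Each sequence runs from 250 bases before to 49 bases after the annotated start base (RefSeq, GRCm38.p6), on the strand of the gene. Capitals mark matches to 3 motifs searched on both strands, which do not overlap each other here: the 9-letter kappaB-type site GGAATTTCC, the core GAAANNGAAA of the interferon-stimulated response element, and TATAAA. The Icam1 window is chr9:21015690-21015989, plus strand, the Cxcl1 window chr5:90890995-90891294, plus strand, the Il12b window chr11:44399813-44400112, plus strand, the Ifit1 window chr19:34640639-34640938, plus strand, and the Ifi44l window chr3:151762842-151763141, minus strand.
Icam1: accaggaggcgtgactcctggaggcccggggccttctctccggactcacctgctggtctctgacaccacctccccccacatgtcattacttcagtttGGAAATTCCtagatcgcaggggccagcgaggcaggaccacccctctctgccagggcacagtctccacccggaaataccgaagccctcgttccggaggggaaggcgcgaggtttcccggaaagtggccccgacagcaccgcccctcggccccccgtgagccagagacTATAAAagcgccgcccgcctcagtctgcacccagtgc
Cxcl1: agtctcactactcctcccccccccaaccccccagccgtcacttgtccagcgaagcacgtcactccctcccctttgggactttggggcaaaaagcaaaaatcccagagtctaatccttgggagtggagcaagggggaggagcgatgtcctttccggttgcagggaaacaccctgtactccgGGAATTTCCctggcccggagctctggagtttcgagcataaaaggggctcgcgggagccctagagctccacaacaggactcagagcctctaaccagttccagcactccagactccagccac
Il12b: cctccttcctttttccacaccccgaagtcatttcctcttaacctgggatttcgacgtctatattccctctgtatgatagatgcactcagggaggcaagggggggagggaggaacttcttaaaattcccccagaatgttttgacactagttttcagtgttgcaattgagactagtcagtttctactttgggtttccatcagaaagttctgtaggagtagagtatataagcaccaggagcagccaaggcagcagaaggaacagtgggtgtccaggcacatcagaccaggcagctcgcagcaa
Ifit1: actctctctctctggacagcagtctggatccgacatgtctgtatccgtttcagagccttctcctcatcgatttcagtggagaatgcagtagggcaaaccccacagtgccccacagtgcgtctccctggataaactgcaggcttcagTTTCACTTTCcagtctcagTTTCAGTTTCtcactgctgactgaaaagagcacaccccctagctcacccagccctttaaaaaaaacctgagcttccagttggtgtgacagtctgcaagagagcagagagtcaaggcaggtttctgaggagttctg
Ifi44l: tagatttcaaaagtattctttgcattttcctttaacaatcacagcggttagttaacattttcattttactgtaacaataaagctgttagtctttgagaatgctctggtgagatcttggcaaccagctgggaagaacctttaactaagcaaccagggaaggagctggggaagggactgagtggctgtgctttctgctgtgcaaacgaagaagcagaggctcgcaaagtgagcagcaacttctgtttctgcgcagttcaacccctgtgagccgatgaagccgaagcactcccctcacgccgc

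The promoters of Icam1 and Cxcl1 each held 1 kappaB-type site, starting 153 bases before the Icam1 start on the opposite strand and 70 bases before the Cxcl1 start on the gene's strand. Of the 21262 promoters in the table, 0.357% hold that motif. The Ifit1 promoter held 2 matches to the response element core, starting 104 and 85 bases before the gene start, and 3.35% of promoters hold at least 1. A TATAAA, present in 12.6% of promoters, began 13 bases after the annotated Icam1 start. No motif of the 3 matched in the Il12b and Ifi44l windows. The motifs were picked with the sequences in view, and a match is no proof of a bound site. The count of CG pairs in the 300 bases was 19 for Icam1, 10 for Cxcl1, 8 for Ifi44l and 4 each for Il12b and Ifit1, against a median of 13 over all promoters. The 2 genes with H3K4me3 at the start in both treatments, Icam1 and Cxcl1, had the 2 highest CG counts of the 5. The Icam1 control peak was weak, and with a -log10 q of at least 5 only Cxcl1 had the mark in both. A link between CG count and mark was not tested.

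Over the 5 windows the lists held 20 peaks in control and 23 after crotonate. A peak is called shared here when at least 1 bp of it overlaps a peak of the same mark in the other treatment, gained when it is in the crotonate list only and lost when it is in the control list only. Of the peaks, 8 were gained and 4 lost. Active marks accounted for 6 of the gained and 3 of the lost peaks. The totals take in peaks at Icam4 and Icam5, neighbours within the Icam1 window. Among these are a gained H3K4me3 peak at the Icam4 start and a lost H3K27ac peak at its end. All of these calls refer to the lists, in which a peak just under the calling limit is absent. In a bulk culture, fewer cells with a mark and less of it per cell cannot be told apart.

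**Figure D1:**
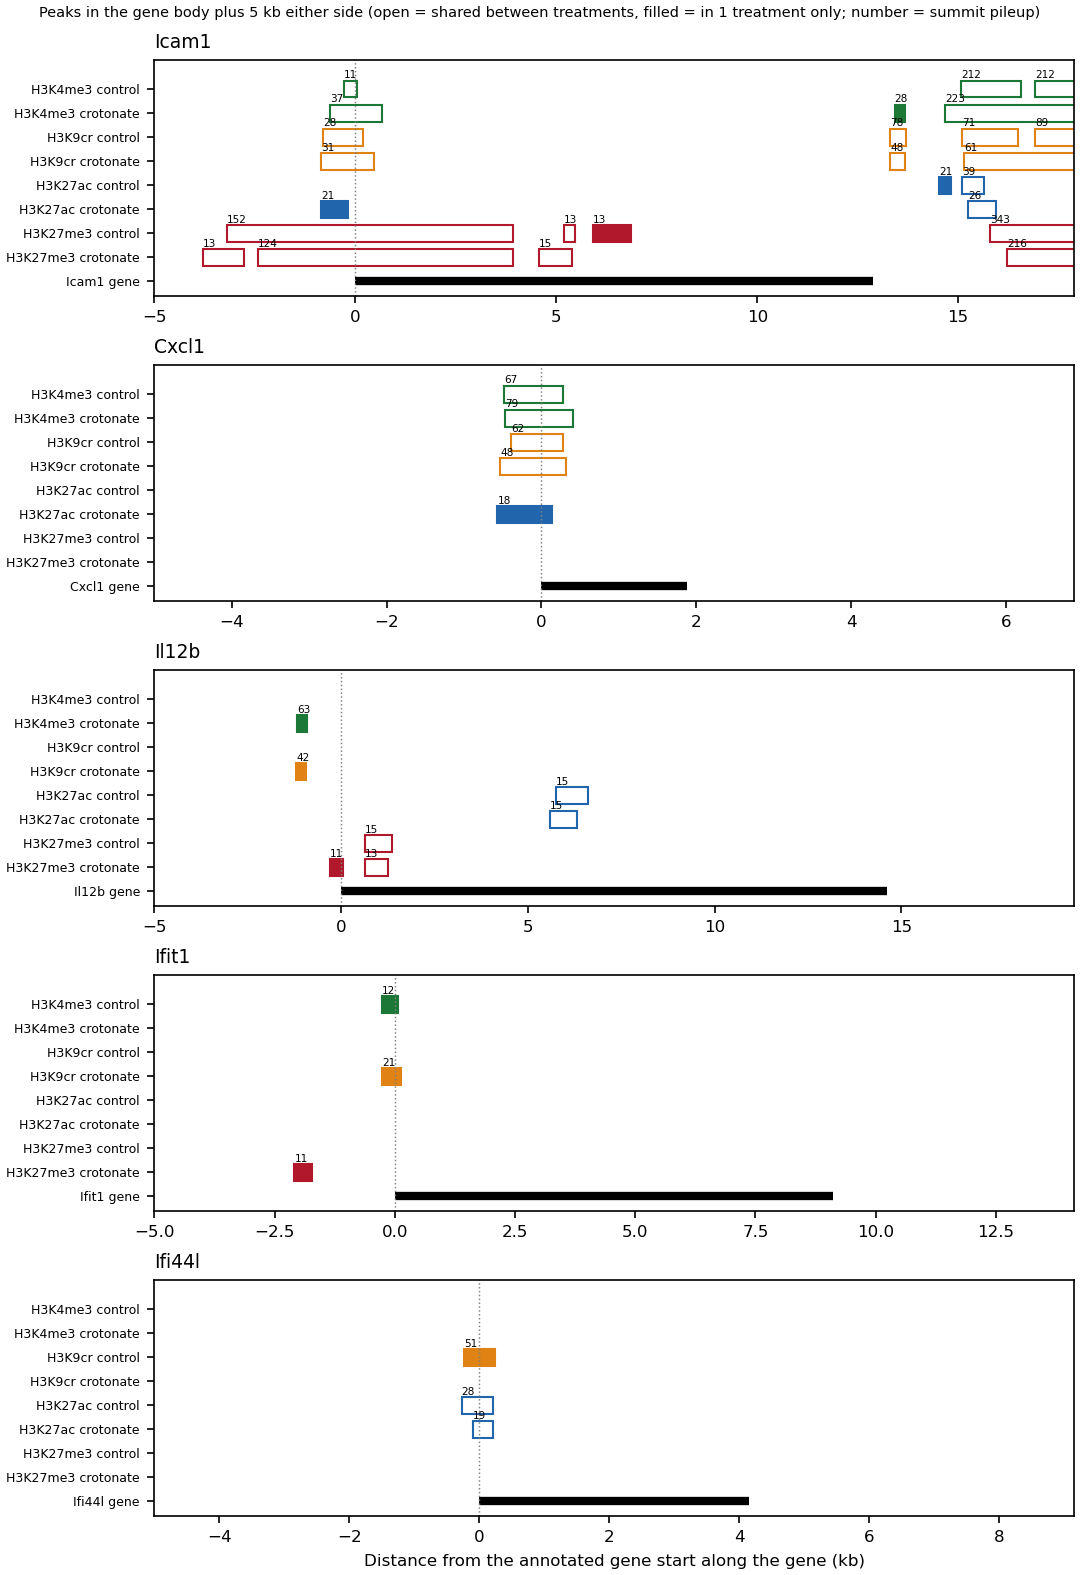
Peaks of the 4 marks in control and crotonate around each gene. The horizontal axis is the distance from the annotated gene start along the gene in kb, the black bar is the gene, each box spans 1 peak, open boxes are shared between treatments, filled boxes are in 1 treatment only, and the small number is the summit pileup. The Icam1 window has 13 control and 12 crotonate peaks, among them those at the neighbouring genes Icam4 and Icam5. Ifit1 has 1 and 2, none of them shared.

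Icam1 (gene ID 15894, chromosome 9, 21015940 to 21028814) carried active marks and H3K27me3 at its start in both treatments. The control H3K4me3 peak at the start was 317 bp wide, with a summit pileup, the height of stacked fragments, of 11 and a fold enrichment, the pileup relative to the local background, of 3.07. The crotonate H3K4me3 peak was 1292 bp wide, with a pileup of 37 and 9.81-fold enrichment. The control peak was near the bottom of its list, at percentile 0.222 by -log10 q, and the crotonate peak at percentile 15.2 of its own list. Over whole lists the median pileup went the other way, with 423 in the control and 374 in the crotonate H3K4me3 list. Those medians come from far stronger peaks, and the rise was not particular to Icam1. Other inflammatory and interferon pathway genes had H3K27me3 at the start in both treatments. Among them the weak H3K4me3 pileups of F11r (33 to 159) and Cd34 (22 to 101) rose. So did stronger ones, for example Tlr2 (299 to 338) and Tnfaip3 (633 to 644). Only those of Irf8 (211 to 193) and Nfkbie (464 to 421) fell. H3K9cr at the Icam1 start had a pileup of 28 (6.12-fold) over 993 bp in control and 31 (7.61-fold) over 1319 bp after crotonate. H3K27ac was listed there only after crotonate, as a 684 bp peak from 860 to 177 bp before the start with a pileup of 21 and 5.98-fold enrichment, at percentile 61.7 of its list. The kappaB-type site lies just downstream of that peak. In the control list the nearest H3K27ac peak lay 12.1 kb away.

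A broad H3K27me3 domain covered the Icam1 promoter. It was 7120 bp wide in control, with a pileup of 152 and 35.2-fold enrichment, and 6340 bp wide after crotonate, with a pileup of 124 and 34.1-fold enrichment. These peaks stood at percentiles 94.7 and 97.0 of their lists. The gained H3K27ac peak and the wider H3K4me3 peak therefore lay inside a Polycomb domain that was listed in both treatments. The lists do not show whether the marks lay on the same chromosomes or in the same cells. Within the gene body, 1 H3K27me3 peak of 948 bp with a pileup of 13 was in control only.

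The Icam1 window also reaches Icam4 and the start of Icam5, which encode further adhesion molecules of red cells and of neurons. A 258 bp H3K4me3 peak with a pileup of 28 (6.66-fold) was gained at the Icam4 start, where H3K9cr was listed in both treatments with pileups of 78 and 48. At the Icam5 start a control H3K4me3 peak with a pileup of 212 and a crotonate one with 223 were listed. The H3K27me3 domain over Icam5 had a pileup of 343 (93.2-fold) in control and 216 (51.3-fold) after crotonate. Here 2 control peaks of H3K4me3, and 2 of H3K9cr, corresponded to 1 wider crotonate peak each. A 303 bp H3K27ac peak of pileup 21 over the annotated end of Icam4 was in control only.

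Cxcl1 (gene ID 14825, chromosome 5, 90891245 to 90893121) had H3K4me3 and H3K9cr at its start in both treatments and no H3K27me3 in its window. The H3K4me3 peak had a pileup of 67 and 15.8-fold enrichment in control, and 79 and 20.7-fold after crotonate. The H3K9cr peak had a pileup of 62 and 12.04-fold enrichment in control, and 48 and 11.7-fold after crotonate. H3K27ac was listed after crotonate only, as a 706 bp peak across the start with a pileup of 18 and 5.16-fold enrichment, at percentile 54.6 of its list. The kappaB-type site in the Cxcl1 promoter lies within that peak. With Icam1, Cxcl1 belongs to 164 genes (0.938% of the 17491 with a listed start) that gained H3K27ac within 1 kb of a start where H3K4me3 and H3K9cr were listed in both treatments. As this combination is the members' own, its share only describes the choice.

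The wider Cxcl1 region held changes at other chemokine genes. An H3K27ac peak 9.24 kb downstream of the Cxcl1 start was shared, with pileups of 24 in control and 20 after crotonate, while an H3K9cr peak on it, with a pileup of 25, was in control only. Cxcl2, which starts 12.65 kb from Cxcl1, gained H3K4me3 with a pileup of 28 (7.49-fold), H3K9cr with 14 (3.57-fold) and H3K27me3 with 13 (3.82-fold). Cxcl3, whose start is 105.1 kb away, gained H3K4me3 with a pileup of 14 (3.87-fold) and H3K9cr with 13 (3.33-fold). The promoters of Cxcl2 and Cxcl3, whose proteins act on the same receptor as Cxcl1, hold the kappaB-type site too. Cxcl1 was the only one of these 3 genes with H3K4me3 in the control list.

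Il12b (gene ID 16160, chromosome 11, 44400063 to 44414677) had no peak of H3K4me3 or H3K9cr in the control window, and the nearest such peaks lay 69.5 and 69.4 kb from its start. After crotonate both marks were listed upstream. The H3K4me3 peak, from 1175 to 914 bp before the start, had a pileup of 63 and 16.5-fold enrichment, at percentile 22.0 of its list. The H3K9cr peak, from 1201 to 942 bp before it, had a pileup of 42 and 10.2-fold enrichment, at percentile 51.2. Both were among the narrowest peaks of their lists: 262 bp, at percentile 0.808 by width, and 260 bp, at percentile 1.88. Neither covered the start, and with windows of 500 bp in place of 1 kb neither was counted. Of the 1239 gained H3K4me3 peaks, 19 reached a pileup of 63, and 3 of those were narrower than 300 bp.

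H3K27me3 was listed at the Il12b start in both treatments at low levels. A shared peak within the first 1.35 kb of the gene had a pileup of 15 (4.34-fold) in control and 13 (3.82-fold) after crotonate. Another of 356 bp, which spans the start, was gained with a pileup of 11 (3.27-fold), at percentile 19.4 of its list. H3K27ac was absent from the start in both lists but present within the gene, 5.59 to 6.61 kb from the start, with a pileup of 15 in each. Gains of H3K4me3 and H3K9cr together were found at 94 of the 17491 genes (0.537%), a share of the pattern by which Il12b was chosen and so no evidence.

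Ifit1 (gene ID 15957, chromosome 19, 34640889 to 34650009) had 3 peaks in all, each in 1 treatment. In control a 325 bp H3K4me3 peak across the start had a pileup of 12 and 2.74-fold enrichment, at percentile 0.13 of its list and a -log10 q of 1.81. After crotonate no H3K4me3 was listed within 89.4 kb of the start. An H3K9cr peak of 378 bp, with a pileup of 21 and 5.23-fold enrichment at percentile 31.5, lay at the same place in the crotonate list only. Both peaks contain the 2 response element cores. H3K27me3 gained a 365 bp peak of pileup 11 (3.27-fold) from 2089 to 1725 bp upstream, and H3K27ac had no peak in the window in either list. Loss of H3K4me3 with gain of H3K9cr was found at 2 genes of 17491, and the other one shares these peaks. It is Ifit1bl2, an Ifit1-like gene whose body reaches to 62 bp from the Ifit1 start. The 2 peaks lie within 1 kb of a start of each gene, so they cannot be assigned to Ifit1 alone. The combination counted is the one seen at Ifit1, so its rarity follows from the choice and is no evidence. The annotated Ifit1bl1 gene spans Ifit1. Ifit genes are similar copies of one another, and how reads that match several copies were treated is not given in the sources used here, so these weak peaks are uncertain.

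Ifi44l (gene ID 15061, chromosome 3, 151758737 to 151762891, minus strand) had H3K9cr at its start in control only. That peak was 478 bp wide, with a pileup of 51 and 10.97-fold enrichment, at percentile 43.1 of its list. H3K27ac was listed at the same place in both treatments, with a pileup of 28 (7.05-fold, 499 bp) in control and 19 (3.21-fold, 329 bp) after crotonate. The background implied by the 2 H3K27ac peaks, found by adding 1 to the pileup, dividing by the fold and taking off 1, was 3.11 in control and 5.23 after crotonate, so the lower fold came with both a lower pileup and a higher local background. No H3K4me3 or H3K27me3 peak lay in the window, and the nearest H3K4me3 peaks were 74.0 and 73.8 kb from the start. Loss of H3K9cr at a start with H3K27ac in both lists and no H3K4me3 in either was found at 24 genes (0.137%). That share describes the pattern for which Ifi44l was chosen and is read no further. Ifi44, a paralogue in the list of interferon-stimulated genes, had no peak of any mark at its start.

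**Figure D2:**
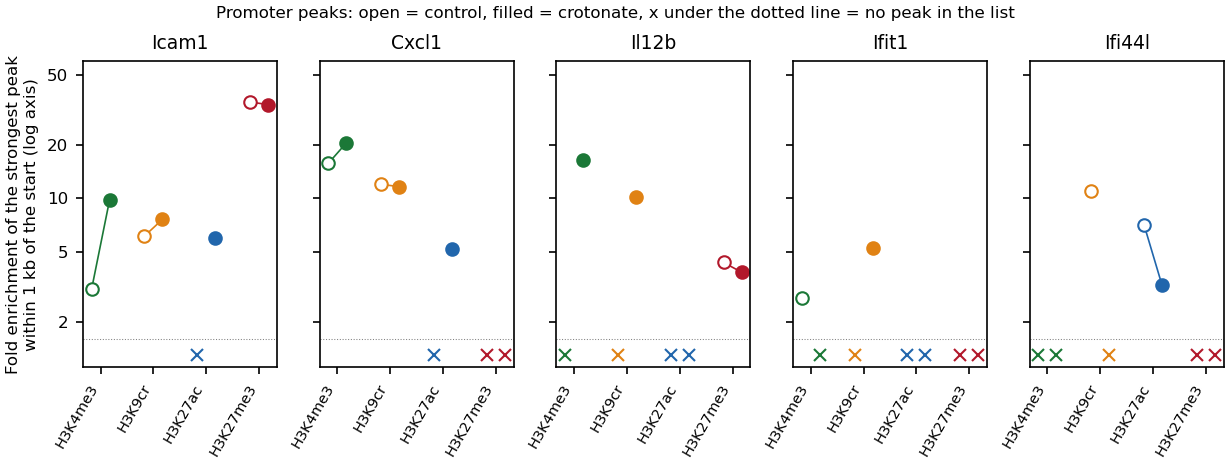
Fold enrichment of the strongest peak within 1 kb of the start for each gene and mark, on a log axis. Open circles are control, filled circles crotonate, lines join marks listed in both treatments, and crosses under the dotted line mark a list with no peak there. Icam1 goes from 3.07 to 9.81 for H3K4me3, while its H3K27me3 stays near 35.

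Taken by gene, the marks gave 4 patterns. Icam1 and Cxcl1 already had H3K4me3 and H3K9cr and gained H3K27ac. Il12b gained H3K4me3 and H3K9cr beside a start without H3K27ac. Ifit1 had a weak H3K4me3 peak in the control list only and an H3K9cr peak in the crotonate list only. With a -log10 q of at least 5 that H3K4me3 peak was absent. Ifi44l kept H3K27ac, as a weaker peak, and lost H3K9cr. With the same limit H3K27ac at Ifi44l was called lost too, and H3K4me3 at Icam1 was called gained. The 2 interferon-stimulated genes therefore differed in the direction of H3K9cr.

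Over the gene body plus 5 kb, 1 of the 5 genes gained H3K4me3, where 1.59% of all 21883 genes did, and 1 lost it, where 0.256% did. H3K9cr was gained by 2 (all genes, 1.83%) and lost by 1 (0.64%). H3K27ac was gained by 1, Cxcl1 (2.5%), and lost by 0 (1.72%), since Icam1 had other H3K27ac peaks in its window. These counts follow from the choice of the genes and are read no further. H3K27me3 was not used in the choice. It was gained in the window of Ifit1 only (all genes, 4.74%) and lost by 0 (3.84%), and 1 gene of 5 cannot be told from these shares.

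Within 1 kb of a start, where 17491 genes could be placed, H3K4me3 was gained by 1 of the 5 genes (all genes, 1.29%) and lost by 1 (0.177%). H3K9cr was gained by 2 (1.51%) and lost by 1 (0.4%). H3K27ac was gained by 2 (1.66%) and lost by 0 (1.54%). H3K27me3 was gained by 0 (1.66%) and lost by 0 (3.71%), and was listed in both treatments at Icam1 and Il12b, as at 15.7% of all genes.

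**Figure D3:**
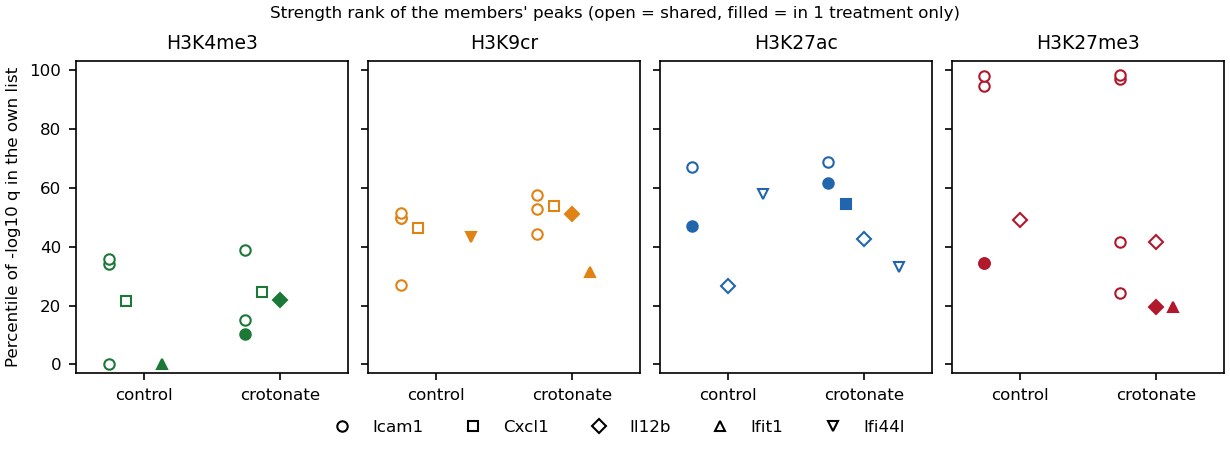
Percentile of each peak of the 5 genes by -log10 q within its own list, for control and crotonate in each mark. Open symbols are peaks shared between treatments, filled symbols peaks in 1 treatment only, and the symbol shape gives the gene. Every H3K4me3 peak is below percentile 40. In the Icam1 window 2 H3K27me3 peaks are above 94 in each treatment, among them the one over Icam5, and 2 control H3K27me3 peaks coincide at 34.3.

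The H3K4me3 peaks of these genes were weak within their lists, between percentiles 0.13 and 38.8, the strongest of them at Icam5. H3K9cr peaks stood between percentiles 26.9 and 57.7, and H3K27ac peaks between 26.7 and 68.7. Read depth is unknown, and only the smallest background that a list's peaks imply can stand in for it. That background was lower after crotonate in H3K27ac (2.68, control 3.11) and H3K9cr (3.205, control 3.74), and close to control in H3K4me3 (2.87, control 2.91) and H3K27me3 (2.67, control 2.69). The crotonate lists were longer for each mark, with 59868 against 52922 H3K27ac peaks and 34707 against 26031 H3K27me3 peaks. With equal numbers of peaks taken from both lists of a mark, the 5 windows held 6 gained and 3 lost peaks of active marks, whereas H3K27me3 gains there numbered 0 in place of 2. The part of depth in the gains was not tested.

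The genes most like each member were found over the 8 highest fold enrichments in the gene body plus 5 kb, as log2 of 1 plus the fold, by Euclidean distance. Icam4 and Icam5 stood at distance 0 from Icam1 because they share the strongest peaks of its window. Those peaks lie downstream of the Icam1 gene, at or beside Icam4 and Icam5, so the Icam1 start was not what was compared. Rgs6, a regulator of G protein signalling, followed at 0.626, with H3K27ac in both lists. For Cxcl1 the nearest were Arxes1 (0.561), Tspyl3 (0.676) and Tmsb15b1 (0.705), each with H3K27ac in the crotonate list only. For Il12b they were Cyp2d22 (1.62), Dsc3 (1.9) and Hrh2 (2.47), all with H3K4me3 and H3K9cr in the crotonate list only. Ifit1bl2 stood at 0 from Ifit1 through the same peaks, followed by 4930544D05Rik and Stab2 at 1.91 each, which had no H3K4me3 peak in either list. For Ifi44l they were Erich6b (0.725), Dpt (0.927), which encodes a protein of the extracellular matrix, and Gm35549 (1.2), all with H3K9cr in the control list only. The distance is built from these same values, so patterns shared with a member follow from the measure.

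Around the 5 genes, 168 other genes of the inflammatory and interferon pathways were listed, of which 125 had an annotated start in the promoter table. Of the 50 with no H3K4me3 at the start in control, 4 gained it (8.0%), against 226 of 6819 genes overall (3.31%). Of 47 without H3K9cr, 9 gained it (19.1%), against 264 of 6651 (3.97%). Of 57 without H3K27ac, 10 gained it (17.5%), against 290 of 7322 (3.96%), and with only peaks of -log10 q of at least 5 the 10 became 5. Losses numbered 1 for H3K4me3, 0 of 78 for H3K9cr and 3 of 68 for H3K27ac (4.41%), against 0.29%, 0.646% and 2.65% overall. For H3K27me3, 5 of 95 genes gained it (5.26%, overall 2.06%) and 5 of 30 lost it (16.7%, overall 19.1%). The lists were drawn up with results of these data known, and 1 of the H3K4me3 gains, 1 of the H3K9cr gains and the H3K4me3 loss are peaks of the Icam1 or Ifit1 window. The gained H3K9cr peaks were weak to middling, between percentiles 1.79 and 37.8 of their list.

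**Figure D4:**
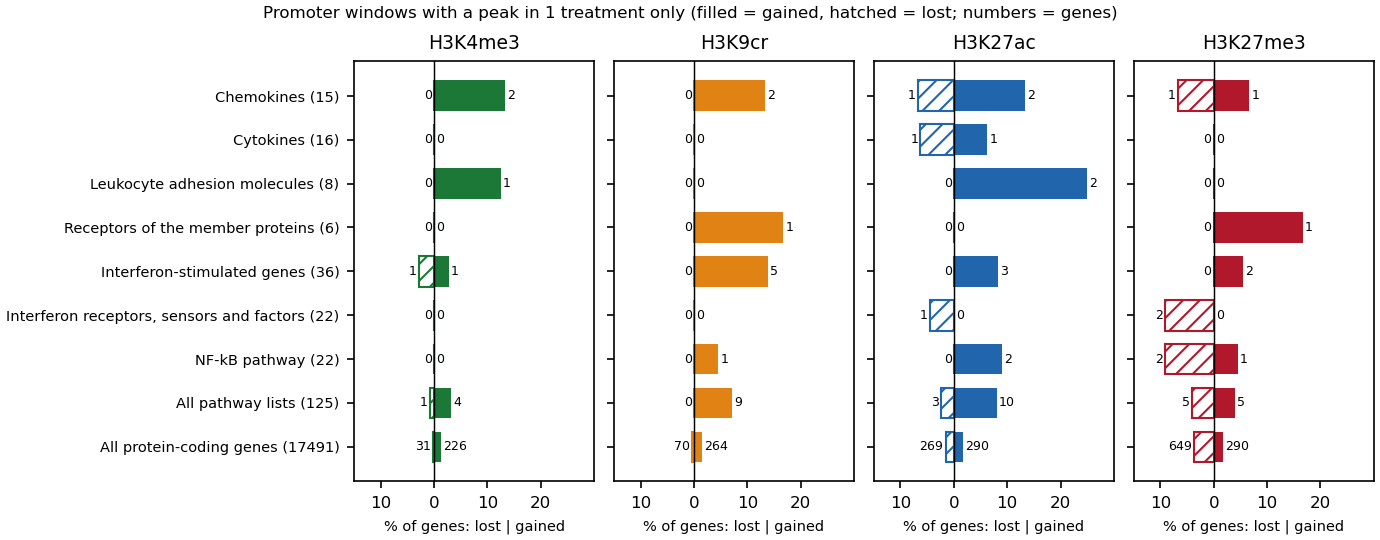
Share of the genes of each list whose promoter window, 1 kb either side of a start, held a peak in 1 treatment only, for each mark. Filled bars to the right are gains, hatched bars to the left losses, numbers beside the bars are genes, and the number of genes placed is in brackets. For H3K9cr the 36 interferon-stimulated genes show 5 gains and 0 losses, and the 125 genes together 9 gains and 0 losses. The gain counted for Ifit1bl2 is the peak of the Ifit1 window. Of all genes, 1.51% gained H3K9cr and 0.4% lost it.

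Among ligands, 2 of 15 chemokine genes, Cxcl2 and Cxcl3, gained H3K4me3 and H3K9cr at the start, where 1.29% and 1.51% of all genes did, and 0 of 16 cytokine genes gained either. Over the gene body plus 5 kb, 22 chemokine genes could be read. There H3K4me3 was gained by 2, again Cxcl2 and Cxcl3, and lost by 2, Cxcl9 and Cxcl10, where 1.59% and 0.256% of all genes did, and H3K9cr was gained by Cxcl3 only. Cxcl10, an interferon-induced chemokine that attracts T cells, lost a weak H3K27ac peak at its start (pileup 17, 4.11-fold), where H3K9cr was listed in both treatments with pileups of 42 and 32. Il33, an alarmin, also lost H3K27ac. Of 6 receptor genes for the proteins of the 5 genes, 0 had H3K4me3 in either list, Il12rb2, a receptor chain for interleukin 12, gained H3K9cr (pileup 18), and Cxcr2 gained H3K27me3 (pileup 13). Genes outside the H3K4me3 gains and losses are named here after their values were seen.

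Of 36 interferon-stimulated genes, 22 had H3K4me3 at the start in each list, 21 of them in both. Ifi35 gained it (all genes, 1.29%), as a 268 bp peak with a pileup of 24, and Ifit1bl2 lost it (all genes, 0.177%). H3K9cr was gained by 5 (13.9%, all genes 1.51%): Lgals3bp and Oasl1 (pileup 25 each), Ifit1bl2 (21), Xaf1 (13) and Ifit3b (11). Both changes of Ifit1bl2 are peaks of the Ifit1 window, so they follow from the choice of Ifit1. The peaks of Xaf1 and Ifit3b were weak, with a -log10 q of 3.24 and 2.02. The H3K9cr losses numbered 0 of the 22 with it in control, where 0.646% of such genes overall lost it. A count of 0 cannot be told from that share. Ifit2, a family member with its own promoter, had H3K4me3 with pileups of 273 and 308, while Ifit3 had no peak of any mark at its start. The response element core was found in a promoter of 19 of the 36 genes, against 689 of 17491 genes overall. The kappaB-type site was found in 0 of the 36, against 75 of 17491.

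Genes that transmit the signals were marked in both treatments. Of 22 interferon receptors, sensors and factors, 21 had H3K4me3 in each list, with 0 gains and 0 losses, for example Stat2, a subunit of ISGF3, with pileups of 643 and 552, and Ifnar1, an interferon receptor chain, with 904 and 756. Only 1 of the 22 could gain it, and 0.29% of genes with it overall lost it, so these 0 counts are read no further. Of 22 NF-kB pathway genes, 20 had H3K4me3 in each, among them Rela, an NF-kB subunit, with pileups of 436 and 392. In that pathway Bcl3 and Tnip1 gained H3K27ac (9.09%, all genes 1.66%). Traf1 gained H3K9cr (4.55%, all genes 1.51%) and H3K27me3 (4.55%, all genes 1.66%). Myd88 and Traf6, adaptors of receptor signalling, lost H3K27me3, with control pileups of 14 and 10. They were 2 of the 7 with it in control (28.6%), against 19.1% of such genes overall. Among the interferon receptors, sensors and factors, the kinase gene Ikbke lost a weak H3K27ac peak (pileup 11), 1 of 21 with it in control (4.76%, overall 2.65%). Socs1 and Socs3, which encode feedback inhibitors of cytokine signalling, lost H3K27me3 from their promoter windows, 2 of 5 with it in control (40.0%, overall 19.1%). Their control peaks had pileups of 45 and 60 and overlapped crotonate peaks that end outside the window, so the mark was listed nearby in both treatments. Counts this small cannot be told from the shares over all genes.

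The labelled cell type was checked on markers. All 8 neural stem and progenitor markers with a listed start, for instance Sox2 and Nes, had H3K4me3, H3K9cr and H3K27ac there in both treatments. In control, 61.0%, 62.0% and 58.1% of all genes had these marks. H3K27me3 was at 3 of the 8 in control and 2 after crotonate. Its pileups were 289 and 188 at Pax6, 95 and 27 at Prom1, and 29 at Sox1 in control only. H3K4me3 at Pax6 was weak (8.18-fold in control, 12.9-fold after crotonate). Of 10 microglia and macrophage markers, 5 had a listed start, and 0 of these 5 had H3K4me3 there in either list. Aif1, Cx3cr1, Ptprc and Itgam had no peak of any mark at the start, and P2ry12 had H3K9cr (6.84-fold in control, 4.22-fold after crotonate) and H3K27ac (8.17-fold and 4.59-fold), which were thus also the summed levels of these 5. The gene body plus 5 kb, which also takes in peaks of neighbouring genes, could be read for all 10, and there the picture differed. H3K4me3 was in the windows of 4 of the 10 in each treatment, H3K9cr of 5 in control and 6 after crotonate, with Csf1r, a receptor of microglia, gaining it, and H3K27ac of 6 in each. Csf1r, Tmem119, Spi1, Tyrobp and C1qa could be read in these wider windows only.

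Markers of other cell types had changed peaks too. H3K4me3 was at the start of 2 of 4 endothelial, 1 of 2 pericyte and fibroblast, 2 of 3 neuronal and 2 of 4 astrocyte markers in both treatments. Col1a2, a collagen gene of fibroblasts, gained H3K9cr at its start (pileup 28, 6.90-fold), and Cldn5, a tight junction gene of endothelium, lost it (pileup 15, 3.25-fold). The neuronal Tubb3 and the astrocyte Gfap lost H3K27ac there, with control pileups of 19 and 23, although the Gfap peak overlapped a crotonate peak outside the window. In the wider windows the endothelial Pecam1 gained H3K4me3 and the pericyte Pdgfrb lost it and gained H3K27ac, Cdh5 gained H3K27ac, and the neuronal Stmn2 gained H3K9cr. These markers were named after their values were seen. The part of other cell types in the changes at the 5 genes was not tested.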

How the data were processed

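Native chromatin immunoprecipitation with sequencing was read from 8 peak lists, 1 for each of 4 marks in 2 treatments; the 2 input libraries were not analysed here. The submitters' processing notes name Bowtie2 2.4.1, MACS2 2.2.7.1 and GRCm38. How peaks were called, whether duplicates were removed and whether the inputs served as controls is not given in the sources used here. For every peak the deposited lists hold a summit pileup (a coverage signal), a fold enrichment (a ratio to local background) and a significance as -log10 of the p-value and of the q-value, per the file headers. The lists begin at a -log10 q between 1.30 and 1.44. All are the authors' own values and served to describe or rank peaks within a list. Positions count from 1.

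Gene positions came from RefSeq (GRCm38.p6), and starts and promoter sequences from a RefSeq promoter table that held 17491 of the 21883 protein-coding genes and all 5 members. Pathway genes were matched by symbol or a unique synonym; Oas1b was thereby read as Oas1g. A gene gained or lost a mark when a peak touched its window in 1 treatment only. Named genes were the members, list genes that gained or lost H3K4me3 at the start (at most 6 per list and direction), genes overlapping a member window and the 3 nearest genes by fold enrichment; other list and marker genes in the text were named after their values were seen. The members, lists and motifs were chosen with earlier results of these data known. Alternatives were windows of 2 and 10 kb, 500 bp and 2 kb at starts, a -log10 q of at least 5, equal numbers of peaks, an overlap of 50% of both peaks, and sharing within 1 kb. Overlap code was tested on simulated peaks. Python 3.11.15, pandas 2.3.3, numpy 2.4.6 and matplotlib 3.10.9 were used.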

Additional observations from a re-analysis of the deposited data

How the results depend on the processing

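No paired analysis was possible because each mark and treatment has 1 library, and none could be left out. Across the 5 windows, lost peaks of active marks numbered 8 in place of 3 when sharing required an overlap of 50% of both peaks. H3K27me3 gains in the windows numbered 0 in place of 2 with a -log10 q of at least 5 and with equal numbers of peaks, 4 with the 50% overlap and 1 with peaks within 1 kb shared. H3K27me3 losses there numbered 2 in place of 1 with equal numbers and with the 50% overlap, and 0 within 1 kb. At the starts, windows of 500 bp left 0 genes in place of 1 gaining H3K4me3 and 1 in place of 2 gaining H3K9cr, since the Il12b peaks lie farther out, and gave 1 gain of H3K27me3, at Il12b. Windows of 2 kb also gave 1 H3K27me3 gain, at Ifit1. With a -log10 q of at least 5, H3K4me3 was gained by 2 genes (Il12b and Icam1, whose weak control peak drops out) and lost by 0, as Ifit1 then has none, H3K27ac was lost by 1 (Ifi44l) and H3K27me3 by 1 (Il12b). The gains of H3K27ac at Icam1 and Cxcl1, the gain of H3K9cr at Ifit1 and its loss at Ifi44l were present with windows of 500 bp, windows of 2 kb and the -log10 q limit. Over all genes, H3K27ac gains were 1.49% and H3K27me3 gains 2.82% with the -log10 q limit, and H3K27me3 gains 3.04% with equal numbers. For the pathway lists, the gene body plus 5 kb gave 4 H3K4me3 losses in place of 1, 2 H3K9cr losses in place of 0 and 21 H3K27me3 gains in place of 5, over 165 genes. The -log10 q limit gave 5 H3K27ac gains in place of 10 and 2 H3K27me3 gains in place of 5, and equal numbers 2 H3K4me3 losses. Fewer or other peaks and wider windows follow from how these alternatives are built; no other cause was tested. The remaining values were within 1.5 times the main ones: 16 of 24 for unshared peaks, 16 of 24 for starts, 29 of 32 for all genes and 18 of 24 for the lists. Weak peaks near the calling limit cannot be told from absence at an unknown depth.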

Other observations

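Narrow H3K4me3 peaks like those gained at Il12b and Icam4 were common among the unshared ones. Of 1239 gained H3K4me3 peaks, 300 were narrower than 300 bp, as were 145 of 486 lost ones, against 456 of all 18001 crotonate peaks and 391 of all 17322 control peaks. Of the 300 narrow gained peaks, 40 touched a gained H3K9cr peak, as the Il12b peak did, and of the 145 narrow lost ones 9 touched a lost H3K9cr peak.

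Over the gene body plus 5 kb, 21 of 165 pathway genes gained H3K27me3 and 4 lost it, among the gains the cytokine genes Il1a, Il1b, Csf1, Il15 and Osm and the antiviral genes Oas1a, Oas2, Oas3 and Usp18. Ifit1bl1 and Ifit1bl2, also among them, share the Ifit1 peak. Over all genes 4.74% gained it in such windows and 3.84% lost it. At the starts the pathway lists had 5 gains and 5 losses, and with a -log10 q of at least 5 they had 2 and 6. The crotonate H3K27me3 list was the longer one, with 34707 against 26031 peaks. The counts in the wider windows were not repeated with that limit or with equal numbers of peaks. The pathway genes here were named after their values were seen.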
